A study of Mus musculus with 8 samples.

Results

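Conventional dendritic nuclei made up 978 of the 77987 nuclei sequenced from mouse visceral white adipose tissue. They were selected by detected transcripts. A nucleus counted from 1000 unique molecular identifiers upward (UMIs, each standing for 1 captured transcript), with 300 or more genes detected and no more than 5% of its UMIs mitochondrial. It had to hold UMIs of at least 2 of 6 marker genes (Flt3, Zbtb46, Xcr1, Clec9a, Cd209a and Ccr7) and of Ciita or H2-Aa. The UMI sum of these 8 genes had to exceed that of the macrophage genes Adgre1 and Mertk and that of the adipocyte genes Plin1, Plin4 and Cidec. Nuclei with 2 or more of the B lineage genes Pax5, Blk and Pou2af1 were left out. Levels of these genes therefore describe the selection and are not results.

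The study placed 2 mice in each of 4 groups, and all carried an altered p21 (Cdkn1a) allele. The mCherry SD group was p21+/mCherry on a standard diet (SD), and the mCherry HFD group was the same genotype on a high-fat diet (HFD). The Tert HFD group was p21+/mCherry-Tert and the TertCi HFD group p21+/mCherry-TertCi, both on the high-fat diet. According to the series text the p21 promoter drives the Tert and TertCi transgenes; it names the stromal vascular fraction and p21+/- mice, whereas the sample labels name nuclei of whole tissue and p21+/mCherry. The labels do not spell out what TertCi is, and give no ages. Tissue was handled in batches of 2 whose members are not recorded, so batch and group cannot be told apart.

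The number of dendritic nuclei differed widely between mice. The mCherry SD mice gave 17 and 40, the mCherry HFD mice 461 and 78, the Tert HFD mice 203 and 7, and the TertCi HFD mice 110 and 62. Their median depth lay between 1182 and 3837 UMIs, and the summed counts per library between 11680 and 2690394 UMIs. Tert HFD mouse rep136, with 7 nuclei, was left out of all gene tests. The Tert HFD group then held 1 mouse, which is assumed to vary as the other groups do. No dendritic barcode was shared between libraries, although pairs of libraries shared 4 to 96 barcodes among all nuclei.

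The transgenes could not be followed in these nuclei. Tert, the catalytic subunit of telomerase, had 7 UMIs in mCherry HFD mouse rep128 and none in the dendritic nuclei of the other 7 mice. In Tert HFD mouse rep134, a count of 0 allows up to 3.65 CPM (UMIs of the gene per 1e6 UMIs of the summed nuclei). In all nuclei outside the dendritic ones Tert lay between 1.39 and 2.57 CPM in the Tert and TertCi mice. In the mCherry mice it lay between 3.37 and 3.94 CPM. The mCherry transcript had no UMI in any dendritic nucleus. The group labels therefore have no check here from the altered genes.

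Conventional dendritic cells take up antigen in tissue and present it to T cells. The cDC1 type, which depends on the transcription factors Batf3 and Irf8, carries Xcr1 and Clec9a and is known for cross-presentation, the display of engulfed antigen on MHC class I molecules. The cDC2 type presents antigen mainly on MHC class II, and both types can mature, switch on Ccr7 and leave for the draining lymph node. Adipose tissue holds resident dendritic cells of both types beside a much larger number of macrophages.

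By the markers of the rule itself, most of these nuclei were of the cDC1 type. Of the 6 markers 2 belong to cDC1 (Xcr1 and Clec9a) and only Cd209a to cDC2. Clec9a was detected in 77.9% of members and Cd209a in 12.9%. The cDC1 majority therefore describes the selection and does not measure the make-up of the tissue. Nuclei with Xcr1 or Clec9a and neither Cd209a nor Ccr7 numbered 748 (76.5%), and those with Cd209a alone of the 3 classes, called cDC2 here, numbered 98 (10.0%). Ccr7 alone marked 23 nuclei (2.35%), more than 1 class 32 (3.27%), and 77 (7.87%) held only Flt3 and Zbtb46. At the edge of the rule, 447 members held exactly 2 of the 6 markers and 531 held 3 or more, while 1957 nuclei held 1 marker and stayed outside. UMIs of Adgre1 or Mertk were present in 413 members (42.2%), and of the 3 adipocyte genes in 259 (26.5%).

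Outside the rule, the leading genes included known cDC1 genes. Genes were ranked by the ratio of CPM in dendritic nuclei to CPM in all other nuclei, as a description without a test, and all 25 leading genes were higher in 7 of 7 mice. Htr7, a serotonin receptor gene, came first and reached 239 to 507 CPM in dendritic nuclei, against 0.997 to 4.13 CPM in macrophage nuclei. Wdfy4, which is needed for cross-presentation by cDC1, reached 1800 to 3640 CPM against 180 to 222 CPM in macrophage nuclei. Irf8 lay between 234 and 658 CPM, against 37.7 to 101 CPM in macrophage nuclei. Naaa, Cadm1, Tlr3 (an endosomal receptor for double-stranded RNA) and the inhibitory receptor genes Btla and Havcr2 were also among the 25.

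**Figure D1:**
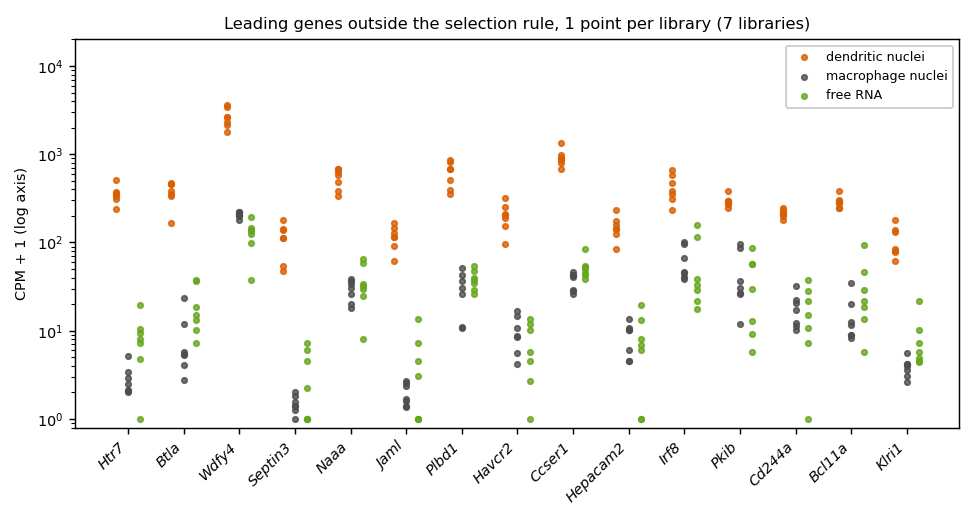
CPM plus 1 (log axis) of the 15 leading genes outside the selection rule, 1 point per library for 7 libraries, in dendritic nuclei, macrophage nuclei and free RNA (barcodes of 10 to 100 UMIs). Htr7 lies at 239 to 507 CPM in dendritic nuclei and at 0.997 to 4.13 CPM in macrophage nuclei.

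Defining genes of several other immune types were absent from the dendritic nuclei. Cd3e and Trac of T cells, Klk1 and Cox6a2 of plasmacytoid dendritic cells, S100a9, Retnlg, Mmp8 and Ly6g of neutrophils and the macrophage gene Cd5l had no UMI in the 7 mice tested. The other macrophage markers were present, below their level in macrophage nuclei. The 17 genes of that list summed to 1448 to 2500 CPM in dendritic nuclei and to 3524 to 7541 CPM in macrophage nuclei. The 15 adipocyte genes summed to 872 to 5392 CPM in dendritic nuclei, close to the 1004 to 4941 CPM of macrophage nuclei.

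The share of dendritic nuclei was higher in both mCherry HFD mice than in both mCherry SD mice. Among all nuclei it was 0.267% and 0.409% in mCherry SD (0.338% ± 0.100, SD, n = 2) and 2.10% and 1.72% in mCherry HFD (1.91% ± 0.266, n = 2), a log2 difference of 2.50. The Tert HFD mice stood far apart at 1.54% and 0.217%, and the TertCi HFD mice lay between the mCherry groups at 0.801% and 1.21%. An exact permutation test over the 4 groups gave p = 0.276, where the smallest possible p was 0.00952. An exact permutation test of 2 mice against 2 cannot pass the threshold, so no pair of groups was tested. Exact 95% binomial intervals, which cover counting error only, ran from 0.156% to 0.427% in the first mCherry SD mouse and from 1.91% to 2.29% in the first mCherry HFD mouse.

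Macrophage nuclei, too, were a larger share in mCherry HFD. They made up 9.42% and 8.65% of nuclei in mCherry SD and 53.4% and 40.0% in mCherry HFD. As a share of dendritic plus macrophage nuclei, dendritic nuclei were 2.76% and 4.51% in mCherry SD, 3.78% and 4.12% in mCherry HFD, 4.88% and 1.60% in Tert HFD, and 4.22% and 6.56% in TertCi HFD. On that base the log2 difference with diet was 0.138, and that of TertCi HFD against mCherry HFD turned from lower to higher (0.420). More dendritic nuclei and fewer nuclei of other kinds cannot be told apart in such shares. With every nucleus thinned to 1000 UMIs, the group means among all nuclei were 0.121%, 0.773%, 0.414% and 0.430% in the same order of groups.

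**Figure D2:**
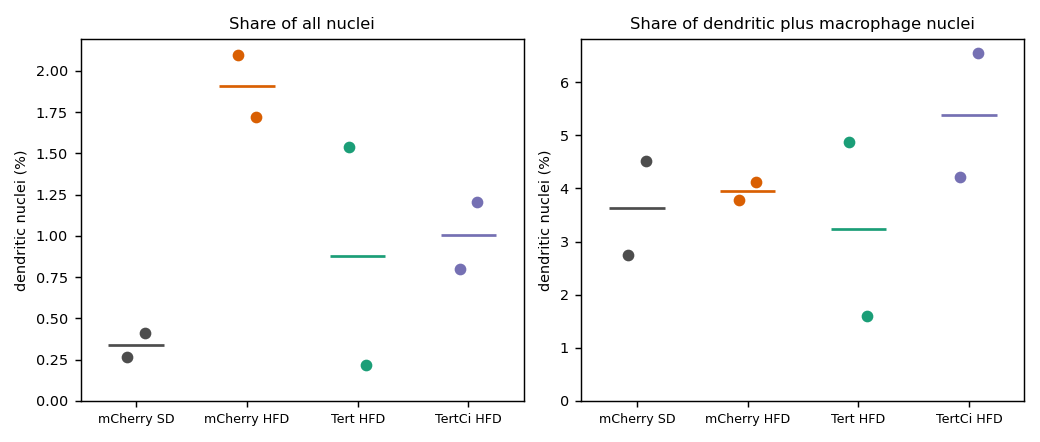
Dendritic nuclei as a percentage of all nuclei (left) and of dendritic plus macrophage nuclei (right), 1 point per mouse with a line at each group mean. On the left the mCherry HFD mice (2.10% and 1.72%) lie above the mCherry SD mice (0.267% and 0.409%), and on the right they lie within the mCherry SD range (2.76% to 4.51%).

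The types were defined by markers that the rule used, so their shares are given as a description. The cDC1 share was 76.5% and 60% in mCherry SD, 77.9% and 79.5% in mCherry HFD, 77.8% and 71.4% in Tert HFD, and 77.3% and 67.7% in TertCi HFD. The cDC2 share ran from 0% to 15% over the 8 mice. Nuclei marked by Ccr7 alone, the receptor that guides mature dendritic cells to lymph nodes, numbered 19 and 3 in the mCherry HFD mice (4.12% and 3.85%) and 1 in Tert HFD mouse rep134. None were found in the other 5 mice, where counts of 0 among 17 and 40 members in mCherry SD allow shares of up to 17.6% and 7.5%, so a difference was not detectable at this depth in mCherry SD. In TertCi HFD the limits were 2.73% and 4.84%. These limits concern nuclei with a Ccr7 UMI, not nuclei expressing the gene, which can be missed at this depth.

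A moderate number of genes differed with diet in the summed counts of dendritic nuclei. Counts were summed per mouse and tested with edgeR's quasi-likelihood test, with p-values adjusted over all 6749 genes tested. In mCherry HFD against mCherry SD 421 genes passed an adjusted p of 0.05 (6.24% of genes tested), 219 higher (3.24%) and 202 lower (2.99%). Without mCherry SD mouse rep146 it was 57 genes, 24 higher and 33 lower, and with adipocyte UMIs as a covariate 58, 3 higher and 55 lower. That covariate came from the same dendritic nuclei and was lowest in both mCherry HFD mice, so the fit cannot separate it from group. With mouse rep146 left out, mCherry SD held only mouse rep144, with 17 dendritic nuclei. Of the 38 genes named for diet 0 passed in all 15 alternative analyses. Macrophage nuclei of the same mice, tested the same way, passed with 27.7% of 18886 genes (15.9% higher and 11.8% lower). Of the 219 higher genes 187 (85.4%) also rose in macrophage nuclei, and of the 202 lower genes 187 (92.6%) also fell there. The difference between the cell classes was tested with the mouse as a block. It passed for 164 of 17215 genes (0.953%), including 16 of the 219 and 13 of the 202. DESeq2 passed 173 genes for diet, 72 higher and 101 lower. Of the 164 genes that differed between classes 120 were relatively higher in dendritic nuclei (0.697%) and 44 lower (0.256%). With RLE scaling in place of TMM these were 69 and 58, and the median over all genes of that difference was 0.15 in place of 0.31.

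**Figure D3:**
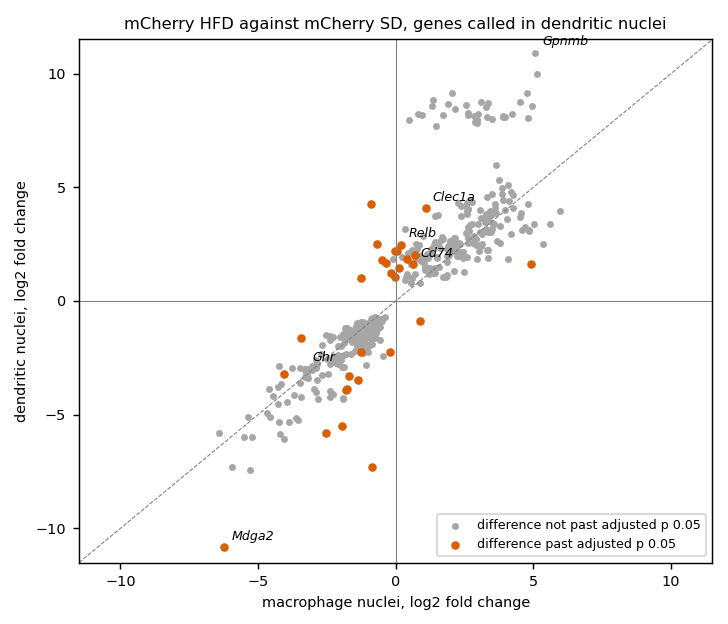
Log2 fold change of mCherry HFD against mCherry SD in macrophage nuclei (x axis) and dendritic nuclei (y axis) for the 421 genes that passed in dendritic nuclei, with a dashed line of equal change. Of these genes 411 have the same sign on both axes, and Clec1a is among those (orange) whose change differed between the classes. The upper band of points near 8 holds genes with few or no UMIs in mCherry SD, where the fitted value is unstable.

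Clec1a gave the clearest change of its own in dendritic nuclei. It encodes a C-type lectin-like receptor known from dendritic and endothelial cells. Its level was 0 and 59.8 CPM in the mCherry SD mice, 716 and 849 CPM in mCherry HFD, 133 CPM in Tert HFD mouse rep134, and 85.0 and 41.4 CPM in TertCi HFD. The 7 nuclei of Tert HFD mouse rep136 held no UMI of it. Both mCherry HFD mice lay far above all others and no group overlapped with them. Clec1a was higher by 4.09 on the log2 scale in mCherry HFD than in mCherry SD (SE 0.44, adjusted p = 5.86e-05).

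Neither Tert genotype on the high-fat diet showed the high Clec1a level. Against mCherry HFD the log2 fold change was -2.58 in Tert HFD (SE 0.37, adjusted p = 0.00248) and -3.41 in TertCi HFD (SE 0.34, adjusted p = 1.9e-05). Tert HFD and TertCi HFD differed by 0.83 (SE 0.41), which did not pass. In macrophage nuclei Clec1a stayed between 2.06 and 10.1 CPM, and in free RNA between 0 and 18.5 CPM. The dendritic minus macrophage difference in log2 fold change was 2.94 for diet (edgeR adjusted p = 0.00112), -2.03 for Tert HFD (adjusted p = 4.24e-05) and -3.39 for TertCi HFD (adjusted p = 4.47e-16). With the adipocyte UMIs of each library as a covariate the Clec1a differences were 3.74, -2.41 and -3.08 and none passed (adjusted p from 0.648 to 0.891). That covariate came from the same dendritic nuclei and was lowest in both mCherry HFD mice, so the fit cannot separate it from group. The diet difference from macrophage nuclei did not pass in 4 of 13 alternatives. These were the 4 without mCherry SD mouse rep144, which was left out or held only 6 or 7 dendritic nuclei. That mouse had no Clec1a UMI in its 17 nuclei. The difference for Tert HFD did not pass without mCherry HFD mouse rep129.

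The share of nuclei with a UMI was also highest in both mCherry HFD mice. A Clec1a UMI was found in 343 of 461 and 57 of 78 members in mCherry HFD (74.4% and 73.1%), in 0 of 17 and 8 of 40 in mCherry SD (0% and 20.0%), and in 65 of 203 in Tert HFD mouse rep134 (32.0%). In TertCi HFD 21 of 110 and 7 of 62 held one (19.1% and 11.3%). Both mCherry HFD mice stayed highest at equal depth, while mCherry SD mouse rep146 lay above TertCi HFD mouse rep138, the reverse of their CPM. Thinned to 1000 UMIs per nucleus, the shares were 53.8% and 56.4% in mCherry HFD, 0% and 10.0% in mCherry SD, 12.3% in Tert HFD mouse rep134, and 5.45% and 4.84% in TertCi HFD.

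Clec1a was found mainly in cDC1 nuclei. With the nuclei of each group pooled, cDC1 nuclei of mCherry HFD held 987 CPM (95% counting interval 945 to 1031) and 89.1% of them had a UMI, whereas cDC2 nuclei of that group held 14 CPM (4.56 to 32.8) and Ccr7 nuclei 16 CPM (1.94 to 57.8). In the cDC1 nuclei of the other groups it was 70.3 CPM in mCherry SD, 160 CPM in Tert HFD and 94.1 CPM in TertCi HFD. The intervals cover counting error only, not differences between mice or nuclei. Of the 421 cDC1 nuclei of mCherry HFD 359 came from mouse rep128.

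**Figure D4:**
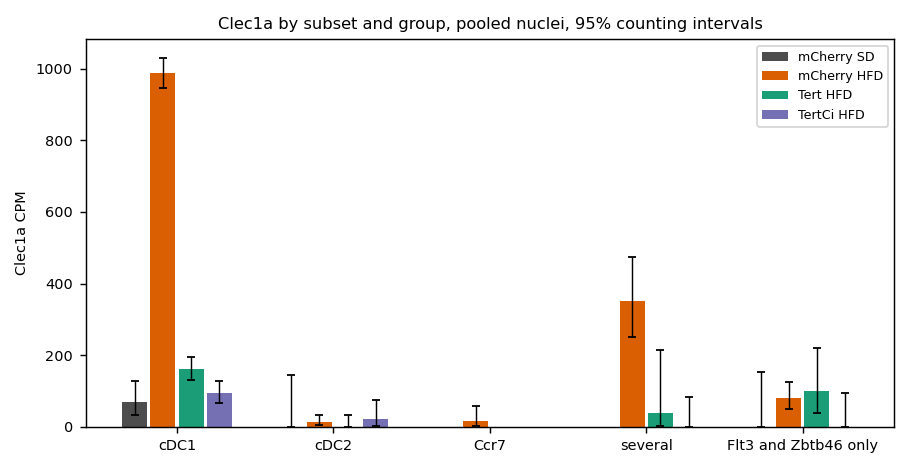
Clec1a CPM in the dendritic types of each group, nuclei of both mice pooled, with bars for 95% counting intervals; combinations with under 5 nuclei are not drawn. The cDC1 nuclei of mCherry HFD stand at 987 CPM, and cDC1 nuclei of the other groups at 70.3 to 160 CPM. The intervals cover counting error only, not differences between mice or nuclei.

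Clec1a lies on chromosome 6 in a row of C-type lectin genes, next to Clec9a on one side and Clec7a on the other. Clec9a, a rule gene and receptor for dead cells, was 551 and 443 CPM in mCherry SD, 631 and 707 CPM in mCherry HFD, 614 CPM in Tert HFD mouse rep134 and 806 and 565 CPM in TertCi HFD. Since the rule used Clec9a, its level is a description only. Clec7a, the receptor for fungal beta-glucan also called dectin-1, was 30.6 and 12.0 CPM in mCherry SD and 97.0 and 117 CPM in mCherry HFD, higher by 2.45 on the log2 scale (SE 0.66, adjusted p = 0.0357). In TertCi HFD it was 41.2 and 9.19 CPM (log2 fold change -1.73, adjusted p = 0.0246). Its diet change did not differ past the threshold from that of macrophage nuclei (0.43, SE 0.78). Both mCherry SD values lay below the level of 3 UMIs in those libraries, 46.0 and 17.9 CPM. The Clec7a calls were lost in 9 of 15 alternatives for diet and 7 of 15 for TertCi HFD, and its level was at or below free RNA in mCherry SD mouse rep146 and both TertCi HFD mice.

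Some genes of dendritic maturation and migration were also highest in mCherry HFD. Of 18 tested genes of that list 5 rose with diet (Relb, Samsn1, Traf1, Tmem123 and Slco5a1) and 1 fell (Cd200), against 3.24% and 2.99% of all genes. The list median was 0.90 on the log2 scale, with genes at 0 in a whole group set at their bound, against 0.01 over all genes. Slco5a1, Il12b and Il4i1 reached the filter on low counts only in mCherry HFD. Their direction in every contrast with that group was thus fixed in advance, and their calls support nothing. In TertCi HFD 7 were lower than in mCherry HFD (Relb, Samsn1, Traf1, Tmem123, Slco5a1, Il12b and Il4i1) and none higher, and in Tert HFD 1 was lower (Slco5a1), against 3.91% and 1.24% of all genes.

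Relb, a transcription factor of the NF-kB family needed for dendritic maturation, was 0 and 29.9 CPM in mCherry SD and 120 and 143 CPM in mCherry HFD, higher by 2.48 (SE 0.61, adjusted p = 0.0239). It was 55.9 CPM in Tert HFD mouse rep134 and 30.9 and 9.19 CPM in TertCi HFD, lower than mCherry HFD in TertCi HFD by -2.38 (SE 0.45, adjusted p = 0.00371). Macrophage nuclei held 24.8 to 54.6 CPM, and the dendritic diet change exceeded theirs by 2.36 (adjusted p = 0.0262). The diet call for Relb was lost in 9 of 15 alternative analyses, and its difference from macrophage nuclei in 10 of 13. The Relb values of the mCherry SD mice rested on 0 and 5 UMIs.

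Samsn1, an adaptor of lymphoid and myeloid signalling, was 76.6 and 29.9 CPM in mCherry SD, 146.4 and 165 CPM in mCherry HFD, 66.9 CPM in Tert HFD mouse rep134 and 38.6 and 36.8 CPM in TertCi HFD. It rose with diet by 1.68 (SE 0.45, adjusted p = 0.0331) and was lower in TertCi HFD by -1.90 (SE 0.36, adjusted p = 0.00336). In macrophage nuclei it stayed between 12.4 and 35.1 CPM, and the TertCi difference exceeded that of macrophage nuclei by -2.16 (adjusted p = 0.000126). Traf1, an adaptor of tumour necrosis factor receptors, went from 30.6 and 17.9 CPM to 92.2 and 154 CPM with diet (log2 fold change 2.27, adjusted p = 0.0269) and was 23.2 and 18.4 CPM in TertCi HFD (log2 fold change -2.29, adjusted p = 0.00334). The TertCi calls of Samsn1 and Traf1 were each lost in 1 of 15 alternatives, and their diet calls in 8 of 15 and 7 of 15. In the mCherry SD mice Samsn1 rested on 5 and 5 UMIs and Traf1 on 2 and 3.

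Slco5a1 and Il12b had no UMI in mCherry SD or TertCi HFD. Slco5a1, a transporter gene that marks migratory dendritic cells, had no UMI in mCherry SD, 52.8 and 60.1 CPM in mCherry HFD, 2.43 CPM in Tert HFD mouse rep134 and none in TertCi HFD. Against a floor of 3 counts over the group it was at least 4.14-fold higher in mCherry HFD than in mCherry SD and at least 10.8-fold higher than in TertCi HFD. Il12b, a subunit of the T cell polarising cytokines interleukin 12 and 23, was 38.3 and 67.7 CPM in mCherry HFD and 18.2 CPM in Tert HFD mouse rep134. It had none in mCherry SD or TertCi HFD, and was at least 8.26-fold higher in mCherry HFD than in TertCi HFD (adjusted p = 0.00938). Its diet difference missed the threshold (adjusted p = 0.0615), and its TertCi call was lost in 5 of 14 alternatives. Since Slco5a1 and Il12b reached the filter on low counts only in mCherry HFD, the direction of these differences was fixed in advance. Cd200 rested on 1 mouse: it was 185 CPM in mCherry SD mouse rep146 and at most 54.7 CPM in the other mice, and without that mouse its log2 fold change turned to 7.33.

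With the nuclei of both mCherry HFD mice pooled, much of this signal sat in few nuclei. In mCherry HFD the 22 nuclei marked by Ccr7 alone were 4.08% of the dendritic nuclei but held 150 of 361 Relb UMIs (41.6%), 234 of 438 of Samsn1 (53.4%), 103 of 158 of Slco5a1 (65.2%) and 76 of 121 of Il12b (62.8%). Relb stood at 1201 CPM in them (95% counting interval 1016 to 1409) and at 50.2 CPM in cDC1 nuclei (41.1 to 60.7). The nuclei marked by Ccr7 alone held 31.1% of Traf1 UMIs, 39.1% of Tmem123 and 44.0% of Il4i1, and 2 of 2152 UMIs of Clec1a. The intervals cover counting error only, not differences between mice or nuclei. Of the 22 nuclei 19 came from mouse rep128.

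Levels in mCherry HFD changed unevenly once nuclei with a Ccr7 UMI were set aside, a description without a test that was chosen after its values were seen. They numbered 22 and 4 in mCherry HFD, 1 in Tert HFD mouse rep134 and 0 in the other mice. Samsn1 was then 67.7 and 62.2 CPM in mCherry HFD, within the mCherry SD range of 29.9 to 76.6 CPM. Relb was 64.9 and 95.3 CPM, Traf1 61.1 and 99.4 CPM and Il4i1 19.4 and 24.9 CPM, each above both mCherry SD and both TertCi HFD mice. Il12b was 1.56 and 16.6 CPM. In mouse rep129 Slco5a1 and Tmem123 moved little, from 60.1 to 53.9 CPM and from 165 to 149 CPM, whereas in mouse rep128 they went to 14.4 and 57.6 CPM. Clec1a was 747 and 924 CPM. How far the number of Ccr7 nuclei accounts for the calls was not tested.

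**Figure D5:**
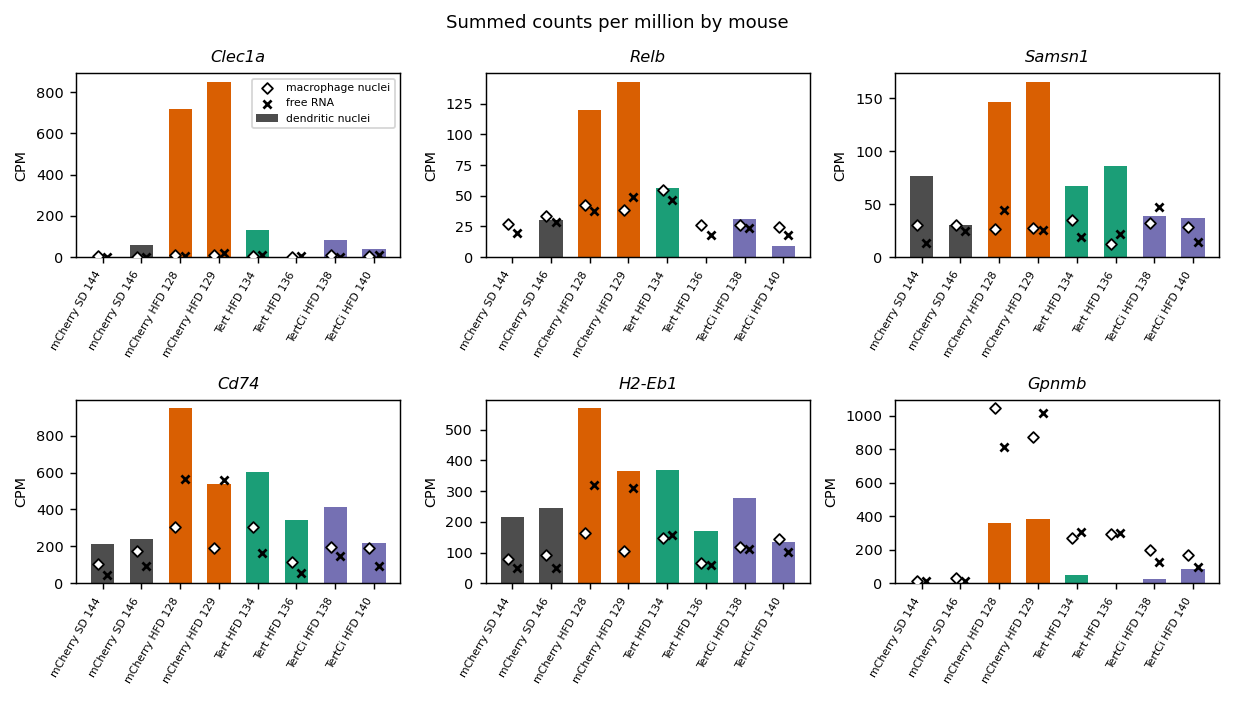
CPM of summed nuclei by mouse for 6 genes, with bars for dendritic nuclei coloured by group, diamonds for macrophage nuclei and crosses for free RNA. Clec1a, Relb and Samsn1 are highest in both mCherry HFD mice, where free RNA lies below them, whereas Gpnmb lies at or below free RNA in the 7 libraries tested and Cd74 lies below it in mCherry HFD mouse rep129.

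Among the transcription factors of dendritic cells, 3 of 16 tested genes rose with diet (Relb, Batf3 and Id2) and none fell, against 3.24% and 2.99% of all genes. Batf3, the factor on which cDC1 depend, was 30.6 and 23.9 CPM in mCherry SD, 100.4 and 105.2 CPM in mCherry HFD, 113 CPM in Tert HFD mouse rep134 and 100.5 and 87.3 CPM in TertCi HFD. All high-fat diet mice lay above both mCherry SD mice (diet log2 fold change 1.86, SE 0.48, adjusted p = 0.0302), and neither Tert genotype passed against mCherry HFD. Id2, which restrains other lineages in dendritic precursors, was 0 and 23.9 CPM in mCherry SD and 127 and 60.1 CPM in mCherry HFD, higher by 2.49 on the log2 scale (SE 0.68, adjusted p = 0.0393). Both diet calls were fragile, with that of Batf3 lost in 9 of 15 alternatives and that of Id2 in 10 of 15. The Batf3 values of the mCherry SD mice rested on 2 and 4 UMIs. Free RNA held 53.7 and 56.7 CPM of Id2 in mCherry HFD.

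Of 14 tested cDC1 genes 1 rose with diet (Batf3), against 3.24% of all genes. None passed in either Tert genotype, where 1.72% (Tert HFD) and 6.36% (TertCi HFD) of all genes did. The list medians were 0.54 with diet, 0.12 in Tert HFD and 0.02 in TertCi HFD, against 0.01, -0.01 and -0.01 over all genes. Of 8 tested cDC2 genes 1 rose with diet (Sirpa), against the same 3.24%, and its level was at or below free RNA in all 7 libraries tested.

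Some antigen presentation genes of MHC class II rose with diet, and some were lower in TertCi HFD. Of 10 tested genes outside the rule 2 rose with diet (Cd74 and H2-Ab1), against 3.24% of all genes. None passed in Tert HFD, where 1.72% of all genes did, and 4 were lower in TertCi HFD (Cd74, H2-Ab1, H2-Eb1 and Ifi30), against 3.91% of all genes. The list medians were 0.94, -0.40 and -1.01 in the same order, against 0.01, -0.01 and -0.01 over all genes. Since H2-Aa or Ciita was required of every member, the list is not independent of the selection.

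Cd74, the invariant chain that escorts class II molecules, was 214 and 239 CPM in mCherry SD and 948 and 537 CPM in mCherry HFD, higher by 1.61 on the log2 scale (SE 0.33, adjusted p = 0.00768). In Tert HFD mouse rep134 it was 603 CPM, and in TertCi HFD 415 and 221 CPM (log2 fold change -1.11, SE 0.28, adjusted p = 0.0234). H2-Ab1, the beta chain of I-A, was 76.6 and 120 CPM in mCherry SD, 385 and 293 CPM in mCherry HFD and 204 and 73.5 CPM in TertCi HFD. H2-Eb1, the beta chain of I-E, was 214 and 245 CPM in mCherry SD, 569 and 365 CPM in mCherry HFD, 367 CPM in Tert HFD mouse rep134 and 278 and 133 CPM in TertCi HFD. It was lower in TertCi HFD than in mCherry HFD by -1.05 (SE 0.28, adjusted p = 0.0345), and this difference exceeded that of macrophage nuclei by -1.07 (adjusted p = 0.0104).

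Free RNA moved with the groups for these genes. Its Cd74 level was 42.5 and 94.4 CPM in mCherry SD, 567 and 559 CPM in mCherry HFD and 150 and 92.1 CPM in TertCi HFD, and in mCherry HFD mouse rep129 it was slightly above the 537 CPM of the dendritic nuclei. H2-Ab1 was also at or below free RNA in that mouse, and Ifi30 in both mCherry HFD mice and in mCherry SD mouse rep144. The part of free RNA in the class II differences was not tested. The TertCi calls of Cd74 and H2-Eb1 were each lost in 7 of 15 alternatives, that of Ifi30 in 6 of 15 and that of H2-Ab1 in 8 of 15. The diet calls were lost in 6 of 15 for Cd74 and 9 of 15 for H2-Ab1.

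Promoters are shown for H2-Eb1, 1 of the 4 class II genes lower in TertCi HFD, and for the rule gene H2-Aa of the same family. The class II promoters are known for a shared set of elements with a Y box, an inverted CCAAT box bound by NF-Y, and a cyclic AMP response element-like X2 box, on which the coactivator Ciita acts. The 250 bases before the start sites, from RefSeq on GRCm38.p6, were searched on both strands for the Y box CTGATTGG and for TGACGTCA, whose matches do not overlap. H2-Aa (chr17:34287824-34288073, minus strand) held the first starting 51 bases and the second 74 bases before its start. H2-Eb1 (chr17:34305617-34305866, plus strand) held the first 62 bases before its start. Of 32851 promoters of this length 3.83% held the Y box letters and 1.55% TGACGTCA. Capitals mark the matches.
H2-Aa: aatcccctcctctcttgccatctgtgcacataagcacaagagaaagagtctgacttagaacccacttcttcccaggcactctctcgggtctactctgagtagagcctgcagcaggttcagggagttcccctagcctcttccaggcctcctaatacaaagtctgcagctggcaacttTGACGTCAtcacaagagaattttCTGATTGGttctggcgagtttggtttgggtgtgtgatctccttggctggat
H2-Eb1: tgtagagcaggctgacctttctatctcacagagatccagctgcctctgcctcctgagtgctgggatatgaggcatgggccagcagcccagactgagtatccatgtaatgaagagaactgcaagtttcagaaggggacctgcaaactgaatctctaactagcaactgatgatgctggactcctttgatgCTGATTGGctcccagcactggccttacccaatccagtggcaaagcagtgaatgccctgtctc

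Several genes had no change past the threshold in dendritic nuclei while they moved in macrophage nuclei. Cd86, a costimulatory ligand of T cells, was 199 and 143.5 CPM in mCherry SD and 283 and 308 CPM in mCherry HFD in dendritic nuclei, but fell from 230 and 185 CPM to 76.9 and 67.9 CPM in macrophage nuclei. The difference between the classes was 2.47 for diet (adjusted p = 2.27e-12), -1.53 for Tert HFD (adjusted p = 0.00021) and -1.69 for TertCi HFD (adjusted p = 5.57e-08). Plbd1, a phospholipase B-like gene, was 352 and 389 CPM in mCherry SD and 682 and 677 CPM in mCherry HFD in dendritic nuclei, and fell from 25.3 and 36.0 CPM to 10.0 and 9.80 CPM in macrophage nuclei (difference 2.69, adjusted p = 2.79e-16). Naaa, a lysosomal amidase, likewise had a difference of 1.38 (adjusted p = 0.00114).

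Cadm1, an adhesion molecule that marks cDC1, went the other way. It was 1838 and 1041 CPM in mCherry SD and 1999 and 1804 CPM in mCherry HFD in dendritic nuclei, with no change past the threshold (0.33, SE 0.26). In macrophage nuclei it went from 65.6 and 130 CPM to 1095 and 905 CPM (log2 fold change 3.13), so the difference between the classes was -2.71 (adjusted p = 1.28e-31). Free RNA held 66.5 and 82.1 CPM of Cadm1 in mCherry SD and 756 and 498 CPM in mCherry HFD.

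Genes of other cell types were among those that changed. Of 12 tested genes of lipid-associated macrophages 6 rose with diet (Gpnmb, St18, Mmp12, Plin2, Atp6v0d2 and Lgals3) and none fell, 4 were lower in Tert HFD and 7 in TertCi HFD. Over all genes 3.24% rose with diet, and 1.24% and 3.91% were lower in Tert HFD and TertCi HFD. Gpnmb, a lysosomal glycoprotein of these macrophages, had no UMI in mCherry SD and 361 and 383 CPM in mCherry HFD, at least 28.2-fold higher against a floor of 3 counts over the group. Macrophage nuclei held 1046 and 872 CPM of it in mCherry HFD and free RNA 813 and 1017 CPM, and the dendritic level lay at or below free RNA in all 7 libraries tested. The 15 genes of the list summed to 1532 and 921 CPM in the dendritic nuclei of mCherry SD, 4017 and 3217 CPM in mCherry HFD, 1819 CPM in Tert HFD mouse rep134 and 1713 and 1549 CPM in TertCi HFD.

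Adipocyte genes moved oppositely. Of 9 tested adipocyte genes 6 fell with diet and none rose, 2 were higher in Tert HFD and 7 in TertCi HFD. Over all genes 2.99% fell with diet, and 0.474% and 2.44% were higher in Tert HFD and TertCi HFD. Ghr, the growth hormone receptor, was 3845 and 2243 CPM in mCherry SD, 378 and 459 CPM in mCherry HFD and 2543 and 1549 CPM in TertCi HFD in dendritic nuclei, at or below free RNA in all 7 libraries tested. Adrb3, the beta-3 adrenergic receptor, and Npr3, the natriuretic peptide clearance receptor, were also at or below free RNA in all 7. Their summed list was 5392 and 3600 CPM in mCherry SD, 1001 and 872 CPM in mCherry HFD, 1889 CPM in Tert HFD mouse rep134 and 4120 and 3020 CPM in TertCi HFD.

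Some neuronal genes rested on mCherry SD mouse rep146. Lsamp, an adhesion molecule of neurons, was 1938 CPM in that mouse and at most 27.6 CPM in the other dendritic libraries, and its macrophage nuclei (851 CPM) and free RNA (944 CPM) held it too. Rbfox3, a neuronal splicing factor, was 502 CPM there and at most 1.86 CPM in the others. Both are among the genes lower in mCherry HFD by the test. With mouse rep146 left out, mCherry SD held only mouse rep144, with 17 dendritic nuclei. How far such genes account for the diet calls lost without mouse rep146 was not tested.

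Against mCherry HFD, TertCi HFD passed with 429 genes (6.36% of 6749), 165 higher (2.44%) and 264 lower (3.91%), and Tert HFD with 116 (1.72%), 32 higher (0.474%) and 84 lower (1.24%). With adipocyte UMIs as a covariate the balance turned, with 10 genes in TertCi HFD, 10 higher and 0 lower, and 33 in Tert HFD, 31 higher and 2 lower. That covariate was itself lowest in both mCherry HFD mice, so the fit cannot separate it from group. The TertCi HFD and Tert HFD contrasts share the mCherry HFD mice with each other and with the diet contrast. A common direction among these contrasts is therefore not independent. Of the genes lower in TertCi HFD 225 of 264 (85.2%) were also lower in macrophage nuclei, where 24.5% of genes passed, 9.62% higher and 14.9% lower. Of those higher in dendritic nuclei 151 of 165 (91.5%) were also higher there. The dendritic and macrophage changes differed for 94 of 17215 genes (0.546%) in TertCi HFD and 34 (0.198%) in Tert HFD. Of the 84 genes lower in Tert HFD 3 differed: Clec1a, Col8a1 and Slco5a1. Since Slco5a1 reached the filter on low counts only in mCherry HFD, its direction was fixed in advance and its call supports nothing. DESeq2 passed 159 genes in TertCi HFD, 82 higher and 77 lower. Without mCherry HFD mouse rep128, the edgeR counts fell to 122 genes in TertCi HFD and 19 in Tert HFD.

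Col8a1, a short-chain collagen gene, had 15.3 and 167 CPM in mCherry SD, 242 and 428 CPM in mCherry HFD, 59.6 CPM in Tert HFD mouse rep134 and 33.5 and 13.8 CPM in TertCi HFD. It was lower than mCherry HFD in both (log2 fold change -2.46, adjusted p = 0.0222, and -3.51, adjusted p = 0.000407). The differences from macrophage nuclei were -1.87 (adjusted p = 0.000123) and -2.32 (adjusted p = 3.13e-06). The 7 nuclei of Tert HFD mouse rep136 held 685 CPM, above all other libraries, so that direction was not seen in the Tert mouse left out of the test. In mouse rep136, 3 UMIs already amount to 257 CPM. Free RNA held 45.1 to 183 CPM of Col8a1. The dendritic level was at or below free RNA in mCherry SD mouse rep144, Tert HFD mouse rep134 and both TertCi HFD mice. The part of free RNA in these differences was not tested.

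Tert HFD against TertCi HFD passed with 0 of 6749 genes in edgeR (0.0%) and 0 in DESeq2. At an unadjusted p under 0.05 edgeR gave 335 genes and DESeq2 113, and the smallest adjusted p was 0.107. By chance alone about 337 of the 6749 genes would fall under that unadjusted p in edgeR. With 1 Tert mouse against 2 TertCi mice, the lack of passing genes does not show that the genotypes act alike. For Clec1a the difference was 0.83 with an SE of 0.41. The difference between the classes passed for 8 of 17215 genes (0.0465%).

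The counts of some other lists stand beside those of all genes. Lists of pathogen sensing, cytokine and chemokine, retinoid and lipid, macrophage, endothelial and mesothelial genes were also tested and are not covered. Over all genes 3.24% rose and 2.99% fell with diet, 0.474% were higher and 1.24% lower in Tert HFD, and 2.44% were higher and 3.91% lower in TertCi HFD. Of 10 tested interferon-stimulated genes and 9 costimulation and checkpoint genes none passed in any of the 3 contrasts, with diet medians of 0.64 and 0.70. Of 13 tested MHC class I and cross-presentation genes none passed with diet or in Tert HFD and 1 was lower in TertCi HFD (H2-D1), whose level was above free RNA in 1 of 7 libraries. None of 8 tested glycolysis and mTOR genes and none of 4 tested cell cycle genes passed. Of 9 tested genes of growth factor signalling, 1 rose with diet and was lower in TertCi HFD (Csf2ra, a receptor chain for GM-CSF). Of 14 tested progenitor genes 3 were lower in TertCi HFD (Col1a1, Col1a2 and Pdgfra). Of 4 tested plasmacytoid genes 1 rose with diet and was lower in TertCi HFD (Runx2), and of 5 monocyte genes 1 rose with diet (Ccr2). Of 3 T and NK genes 1 rose with diet and was lower in TertCi HFD (Il7r). None of these passed in Tert HFD. Of 4 B lineage genes 2 fell with diet (Ebf1 and Bank1) and 1 was higher in TertCi HFD (Ebf1), and the 1 mast cell gene tested did not pass.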

How the data were processed

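Nuclear RNA of 8 libraries was sequenced on the 10x platform. The authors deposited matrices of UMI counts per gene and barcode, unfiltered; per the file headers they were written by Cell Ranger 7.1.0, while the submitters' processing notes name Cell Ranger 5.0.1, bcl2fastq 2.20.0 and mm39. Whether intronic reads were counted is not given in the sources used here. Genes are named as in the deposited features.

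Dendritic and macrophage nuclei (at least 2 UMIs of Adgre1 and Mertk, exceeding the dendritic and adipocyte genes) were selected from all barcodes with at least 1000 UMIs. No doublets were removed in the main analysis. In the alternative with doublets removed, 140 of 461 dendritic nuclei of mCherry HFD mouse rep128 were flagged (30.4%), against 17.6% of all its nuclei. In the other libraries 0% to 17.5% of the dendritic nuclei were flagged. Counts were summed per mouse where at least 10 nuclei were present, and tested with edgeR 4.0.16 (TMM, filterByExpr, quasi-likelihood, all groups in 1 fit, Benjamini-Hochberg, threshold 0.05) in R 4.3.3; DESeq2 1.42.0 was an alternative. SEs were computed from the log2 fold change and the F statistic. Shares were tested by exact permutation of 4 groups (two-sided). CPM are per 1e6 UMIs of the summed nuclei and not per gene length, so levels are compared within a gene. Free RNA is the sum of barcodes of 10 to 100 UMIs. Genes were named if past the threshold with a mean of at least 50 CPM, up to 12 per direction and contrast by fold change, and from the lists up to 4 each by p; other genes singled out (such as Cd86, Plbd1, Cadm1 and Traf1) were chosen after their values were seen. The nuclei and gene lists were chosen with earlier results of these data known. The test was checked on simulated data. Mice are separate samples by their numbers; nothing else records how they were drawn.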

Additional observations from a re-analysis of the deposited data

Results flagged for a closer look

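Each difference here is the log2 fold change in dendritic nuclei minus that in macrophage nuclei of the same mice, tested as an interaction with the mouse as a block (edgeR, adjusted p under 0.05). For diet it was 2.94 for Clec1a, 2.69 for Plbd1, 2.47 for Cd86, 2.36 for Relb, 2.2 for Tmem123, 2.10 for Samsn1, 1.38 for Naaa, 1.07 for Cd74, -1.70 for Cd200 and -2.71 for Cadm1. For Tert HFD against mCherry HFD it was 1.92 for Cadm1, -1.53 for Cd86, -1.70 for Plbd1, -1.87 for Col8a1, -2.03 for Clec1a and -4.74 for Slco5a1. For TertCi HFD against mCherry HFD it was 2.09 for Cadm1, -1.07 for H2-Eb1, -1.69 for Cd86, -1.81 for Relb, -1.94 for Plbd1, -2.16 for Samsn1, -2.32 for Col8a1, -3.39 for Clec1a and -11.41 for Slco5a1. The last value depends on the prior count, since Slco5a1 had no UMI in TertCi HFD. In dendritic nuclei Slco5a1 reached the filter on low counts only in mCherry HFD. Its direction there was fixed in advance in both contrasts, and its calls support nothing. Some of these calls did not hold under other settings: for diet, Relb was lost in 10 of 13 alternatives, Tmem123 in 9, Cd74 in 7, Naaa in 5, and Clec1a, Samsn1 and Cd200 in 4 each. For TertCi HFD, Relb and Slco5a1 were lost in 6 of 13 and H2-Eb1 in 5, and for Tert HFD Slco5a1 in 3 of 12. The other calls were lost in at most 2.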

How the results depend on the processing

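No paired analysis was possible because the groups share no replicate numbers. The share of dendritic nuclei differed by 0.138 (diet), -0.451 (Tert HFD) and 0.420 (TertCi HFD, reversed) on the log2 scale with dendritic plus macrophage nuclei as the base. Leaving out 1 mouse gave share p from 0.0190 to 0.495, differences of Tert HFD from mCherry HFD of -3.04 to -0.306 and from TertCi HFD of -2.09 to 0.640, the last without Tert HFD mouse rep136. The types are defined by markers of the rule, so the p-values for their shares support nothing. Exact p for cDC1 was 0.438, and 0.0286 with 3 of 6 markers. That for more than 1 class was 0.0381, with 0.267 with doublets removed, 0.143 after thinning and 0.0190 to 0.0952 without 1 mouse, and that for Ccr7 was 0.143, with 0.0286 to 0.143 without 1 mouse.

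Genes passing for diet were 173 (DESeq2), 58 (adipocyte UMIs as covariate), 165 (UMI minimum per library), 235 (2000 UMIs), 145 (3 of 6 markers), 209 (doublets removed) and 57 to 510 without 1 mouse. For Tert HFD they were 227 (no filter on low counts), 22, 33, 47, 12 and 46 (as before, without the 2000 UMI setting) and 19 to 170. For TertCi HFD they were 656, 159, 10, 226, about 1.4e2, 238 and 122 to 610 in that order, and for Tert HFD against TertCi HFD 41 (no filter), 8 (covariate) and 0 to 5. For the difference from macrophage nuclei, diet gave 102 (no filter), 102 (UMI minimum), 85 (3 of 6 markers) and 48 to 245, Tert HFD 21 (UMI minimum) and 8 to 40, TertCi HFD 34 to 132, and Tert HFD against TertCi HFD 21, 20, 1 (UMI minimum, 3 of 6 markers, doublets removed) and 4 to 16. Under 3 settings (UMI minimum, 2000 UMIs, 3 of 6 markers) mCherry SD held 1 mouse.

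With the adipocyte covariate these reversed: Atg16l2 0.59, Col8a1 1.64, Ghr -0.0814, Gpnmb 2.71, Ifi30 0.44, Il12b 0.44, Prr16 -1.33, Slc1a3 -0.39 and Wdr17 12.53 in TertCi HFD, Col8a1 0.31 and Gpnmb 0.0905 in Tert HFD, and Prr16 1.73 and Sirpa -0.63 with diet. Without mCherry SD mouse rep146, 3 genes reversed with diet: without 1 mouse, Cd200 ran from -2.86 to 7.33 (-2.47 to 11.39 against macrophage nuclei), Kcnd2 from -6.23 to 5.58 and Kcnq5 from -5.08 to 0.78. The adipocyte covariate, taken from the same nuclei, was lowest in both mCherry HFD mice, so its fits cannot separate it from group. The cause of the reversals was not tested.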
